A study of Homo sapiens with 16 samples.

Results

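Transcripts of 94 genes of the respiratory chain and ATP synthase were examined, out of 27311 genes listed for 4 human immune cancer lines. Genes were taken by name: symbols beginning with NDUFA, NDUFB, NDUFC, NDUFS, NDUFV, SDH, UQCR, COX4I, COX5, COX6, COX7, COX8 or ATP5, with the assembly factors NDUFAF and SDHAF and the SDHAP copies left out. No measured value entered that choice. By textbook assignment, 75 of the 94 encode standard subunits: 37 of complex I, 4 of complex II, 8 of complex III, 11 of complex IV and 15 of complex V. The rest are 7 isoforms or paralogues, 3 antisense RNAs, 2 readthrough transcripts, 4 copies and 3 associated genes. Of the 94 genes, 86 reached 1 TPM (transcripts per 1000000, a share of the library corrected for transcript length) in at least 2 libraries and were tested. The other 8 were COX4I2, COX6A2, COX6B2, COX7A1, COX7B2, NDUFV2-AS1 and the readthroughs ATP5J2-PTCD1 and NDUFC2-KCTD14.

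Complexes I to IV sit in the inner mitochondrial membrane and pass electrons from NADH and succinate to oxygen, and complexes I, III and IV pump protons as they do so. Complex V, the ATP synthase, lets the protons back and makes ATP. Most subunits are encoded in the nucleus and imported, while a core set is encoded by mitochondrial DNA, and immune cells are known to shift between oxidative phosphorylation and glycolysis on activation. The mitochondrially encoded subunits were not analysed here.

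The lines were THP-1 and U937, both monocytic, the T cell line Jurkat and the B cell line BJAB. The THP-1 line was engineered with dCas9-KRAB, in which a non-cutting Cas9 is fused to a repressor domain, in untreated and treated samples alike. The other lines were wild type. Cells were left untreated or stimulated for 4 hours. LPS, the bacterial ligand of TLR4, was given to THP-1 at 1 µg/ml and to U937 at 200 ng/ml. Jurkat was given anti-CD3 at 5 µg/ml and PMA, a phorbol ester, at 100 ng/ml, and BJAB was given anti-IgM at 10 µg/ml and anti-CD40 at 4 µg/ml. There were 2 libraries in each of 8 groups. No label tells whether these were separate cultures, so every p-value measures the spread between libraries, which may be technical.

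The nuclear subunit genes are known targets of the transcription factors NRF1, the ETS factor GABP and YY1. Promoter sequences from RefSeq (build GRCh38.p14, 250 bases before to 50 after the start) matched 62 of the 75 standard subunits, and 4 motifs were searched on both strands. The NRF1 consensus was found in 6 of the 62 (9.7%), against 2.8% of the promoters of 10608 tested genes and 1.6% of all 27305 promoters. The ETS letters CCGGAAG were found in 19 (30.6%, against 18.7% and 10.7%). The YY1 core AAGATGG was found in 16 (25.8%, against 7.5% and 6.1%), and CCAAT in 19 (30.6%, against 36.4% and 35.7%). Other forms of the NRF1 and YY1 motifs, searched earlier and given with the processing, were also more frequent in the subunit promoters than in both backgrounds. No match of one motif overlapped a match of another. A match describes the letters in the window and is not a binding site shown by these data. The 250 bases before the start are printed for 4 members whose levels set the lines apart, on the plus strand, with the matched letters in capitals. COX8A, on chr11:63974370-63974619, and COX8C, on chr14:93346932-93347181, are the common and the testis isoform of the same complex IV subunit. COX8A holds 1 ETS match and 2 CCAAT matches, and COX8C none of the 4 motifs, though it holds 1 match of the looser NRF1 form.
COX8A: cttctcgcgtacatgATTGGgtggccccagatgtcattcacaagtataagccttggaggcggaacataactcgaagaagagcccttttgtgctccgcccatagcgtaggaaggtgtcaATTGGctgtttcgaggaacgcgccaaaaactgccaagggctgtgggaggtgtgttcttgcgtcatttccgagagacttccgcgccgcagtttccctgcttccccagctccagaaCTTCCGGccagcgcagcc
COX8C: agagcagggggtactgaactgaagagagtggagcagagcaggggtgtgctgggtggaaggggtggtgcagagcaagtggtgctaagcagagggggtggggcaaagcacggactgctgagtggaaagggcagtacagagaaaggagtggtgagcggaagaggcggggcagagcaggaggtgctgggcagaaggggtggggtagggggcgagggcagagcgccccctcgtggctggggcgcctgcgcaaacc
SDHA, on chr5:218070-218319, encodes the flavoprotein of complex II and holds no match of the 4 motifs in these bases, but 4 matches of the looser NRF1 form. UQCRQ, on chr5:132866392-132866641, encodes a small complex III subunit and holds 1 ETS match.
SDHA: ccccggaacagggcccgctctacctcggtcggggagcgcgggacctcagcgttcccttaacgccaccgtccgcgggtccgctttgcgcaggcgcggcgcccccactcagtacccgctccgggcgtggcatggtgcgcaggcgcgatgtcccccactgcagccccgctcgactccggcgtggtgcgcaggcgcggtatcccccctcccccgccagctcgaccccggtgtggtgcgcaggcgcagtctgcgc
UQCRQ: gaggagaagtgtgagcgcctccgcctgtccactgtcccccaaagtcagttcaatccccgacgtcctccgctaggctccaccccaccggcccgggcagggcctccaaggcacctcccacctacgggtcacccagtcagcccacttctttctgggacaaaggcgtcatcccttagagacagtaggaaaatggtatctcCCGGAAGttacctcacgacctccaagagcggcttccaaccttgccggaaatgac

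Depth, worked out from the size of the steps between TPM values, was 3317689 to 8432224 reads per library, with 12731 to 15013 genes above 0. Lineage markers, 10 per lineage, followed the labels: summed monocytic markers were 7662.3 to 11770.8 TPM in THP-1 and U937, against 54.7 to 491.8 TPM in Jurkat and BJAB. Summed T cell markers were 4909.2 to 5825.1 TPM in Jurkat and at most 104.1 TPM elsewhere, and summed B cell markers were 2314.9 to 7111.2 TPM in BJAB and at most 178.3 TPM elsewhere. CD14 was at 0 in every U937 library. In U937 and in BJAB the first stimulated library stood apart from the others of its line. In that U937 library the difference from the controls followed transcript length, and in that BJAB library it followed GC content, with a median log2 difference of 0.07 in the fifth of genes lowest in GC and -1.13 in the fifth highest.

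Subunit transcripts were abundant in every library. The 75 standard subunits together took 4.39% to 7.37% of all TPM. On the TPM scale the median subunit mean over the 16 libraries was 397.1 TPM in complex I, 349.3 in complex II, 579.9 in complex III, 1270.3 in complex IV and 730.9 in complex V. The most abundant was ATP5B, the catalytic beta subunit of the ATP synthase head, at 2590.6 TPM. COX7C of complex IV followed at 2055.5 TPM, then NDUFS5 of complex I at 1351.4, the hinge protein UQCRH of complex III at 1067.8 and the iron-sulfur protein SDHB of complex II at 611.1. At the low end stood NDUFA10 at 28.9 TPM and ATP5E at 62.3 TPM. ATP5E, the epsilon subunit, has a near-identical copy, ATP5EP2, and only uniquely aligned reads were counted, so its level is uncertain. By GENCODE 29, exons of 34 of the 75 subunit genes overlap exons of another gene, 23 of them on the opposite strand. Whether counting used strand is not stated.

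**Figure D1:**
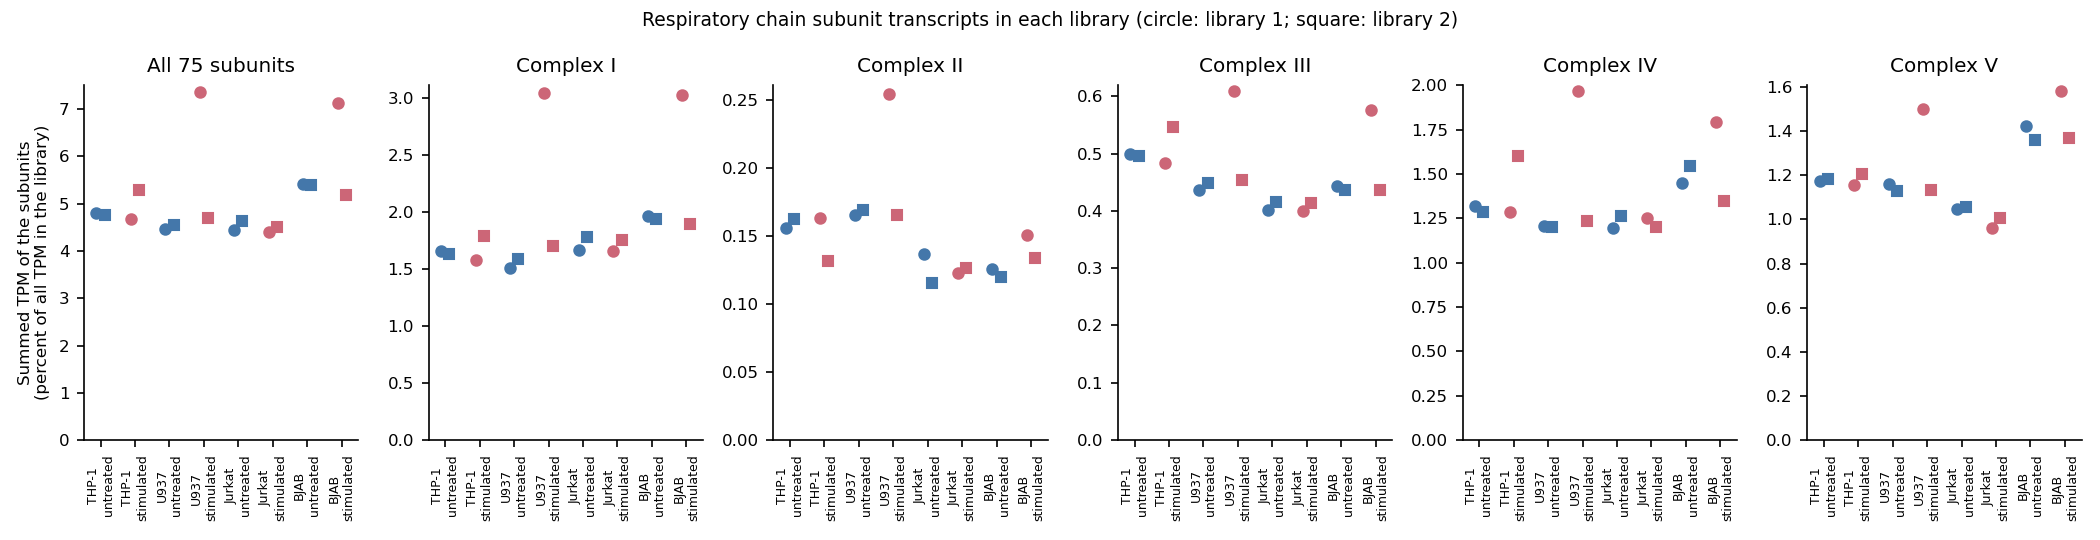
Summed TPM of the standard subunits as a percent of all TPM in each library, for all 75 and by complex; circles are first libraries and squares second libraries, blue untreated and red stimulated. The first stimulated library of U937 (7.37%) and that of BJAB (7.12%) lie above all others, which run from 4.39% to 5.41%.

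In the untreated lines the subunits took 5.41% and 5.40% of TPM in the BJAB libraries, 4.80% and 4.76% in THP-1, 4.45% and 4.63% in Jurkat and 4.47% and 4.54% in U937. BJAB libraries were highest and did not overlap those of the other lines, THP-1 came next, and the Jurkat and U937 libraries interleaved. These are shares of each library, so they do not give RNA per cell, and bulk samples do not tell how cells of a line differ. BJAB had the highest mean of the 4 lines for 33 of the 75 subunits, and U937 the lowest for 31. Such ranks were counted for the subunits alone, so these counts have no background over all tested genes. The ratio of the highest to the lowest untreated line had a median of 1.68 over the 75 subunits. The same ratio was 1.97 over 2005 tested genes with an untreated mean of at least 100 TPM. It reached 2-fold for 21 subunits (28%), against 48.53% of those 2005 genes. The lowest ratio was 1.06, for NDUFB11.

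Each untreated line was then tested against the mean of the other 3 (limma on log2(TPM + 1), adjusted over all 14398 tested genes). These 4 comparisons use the same 8 untreated libraries, and the spread is pooled over all 16. Of 86 tested members 16 passed for THP-1, beside 34.9% of all tested genes: 11 were higher, beside 17.6% of genes, and 5 were lower, beside 17.3%. For U937 24 passed, beside 35.9% of genes: 8 were higher (15.1% of genes) and 16 lower (20.8%). For Jurkat 13 passed, beside 38% of genes: 6 were higher (22% of genes) and 7 lower (16%). For BJAB 19 passed, beside 39.5% of genes: 12 were higher (14.5% of genes) and 7 lower (25% of genes). With all libraries the shares of members were 18.6%, 27.9%, 15.1% and 22.1%, each below its background. The members' median log2 difference was -0.03 in THP-1, -0.21 in U937, -0.04 in Jurkat and 0.22 in BJAB, beside -0.08, -0.11, 0.14 and -0.15 over all tested genes. The counts depend on single libraries. Without 1 of the line's own untreated libraries 4 or 5 members passed in THP-1, 9 or 10 in U937, 5 in Jurkat and 4 or 5 in BJAB. Without the second U937 control 10 passed in THP-1, and without the first Jurkat or the first THP-1 control 12 passed in BJAB. Without the second THP-1 or the first U937 control 8 passed in Jurkat. Without either stimulated U937 library more members passed in Jurkat and BJAB. When the second was left out, more of all tested genes passed there too. The other counts with 1 library left out are given without a share of all tested genes beside them. With the first stimulated library of both U937 and BJAB left out, which enter only through the pooled spread, 43, 51, 40 and 51 members passed for THP-1, U937, Jurkat and BJAB in turn, against 55.6%, 57.5%, 58.9% and 59.4% of genes. Of those members 19, 16, 18 and 37 were higher, so that in THP-1 more members (24) were lower than higher. The THP-1 balance was also 11 higher and 12 lower without either stimulated U937 library. Median-of-ratios scaling left 6, 10, 8 and 3, with 1 higher and 7 lower in Jurkat, against 36.1%, 37%, 37.1% and 40.3%. Since THP-1 alone carried dCas9-KRAB, line and transgene cannot be told apart there.

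**Figure D2:**
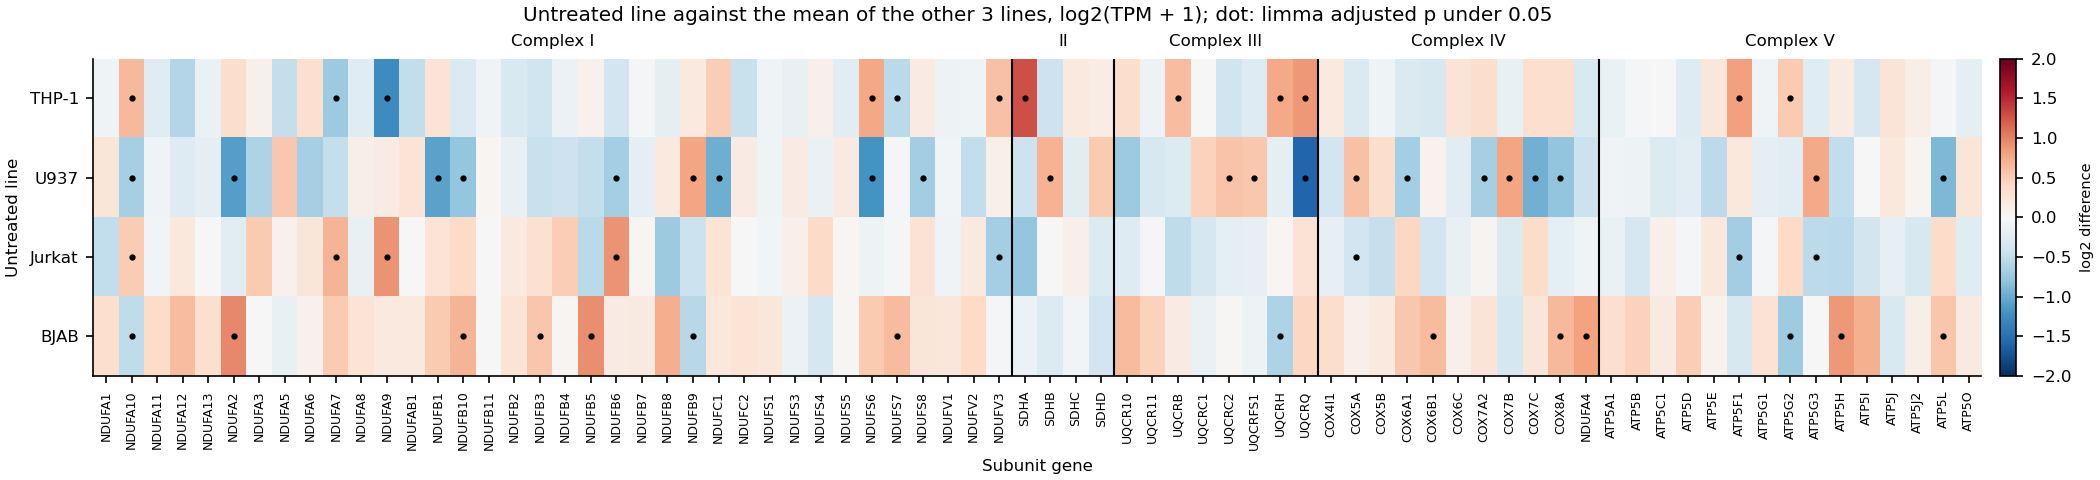
Fitted log2 difference of each untreated line from the mean of the other 3, for 74 standard subunits ordered by complex; red is higher, blue is lower and a dot marks limma adjusted p under 0.05. The deepest colours are UQCRQ, at -1.58 in U937, and SDHA, at 1.29 in THP-1.

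Complex I takes electrons from NADH. The core genes NDUFS1 and NDUFV1 passed in no line: NDUFS1, of the electron input module, ran from 106.0 to 143.8 TPM over the 8 untreated libraries, and NDUFV1, which binds NADH, from 376.5 to 458.4 TPM.

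NDUFA9, an accessory subunit of the peripheral arm, was at 134 and 141 TPM in THP-1 libraries and 437 and 410.2 TPM in Jurkat, with U937 (271 and 308 TPM) and BJAB (318 and 272 TPM) between. THP-1 was lowest (log2 difference -1.25 ± 0.24 (SE), limma adjusted p = 0.00149) and Jurkat highest (log2 difference 0.90 ± 0.24 (SE), limma adjusted p = 0.0111), while U937 and BJAB overlapped. NDUFS6, an accessory subunit that binds zinc, was at 445 and 499 TPM in U937 and at 777.6 to 1374 TPM in the 6 other libraries, with U937 below all of them (log2 difference -1.20 ± 0.22 (SE), limma adjusted p = 0.00132). NDUFA2, another accessory subunit, was at 182 and 181 TPM in U937 and 516 and 547 in BJAB, with THP-1 and Jurkat between at 272.7 to 393.5 TPM. It was the lowest in U937 (log2 difference -1.09 ± 0.22 (SE), limma adjusted p = 0.00194) and the highest in BJAB (log2 difference 0.96 ± 0.22 (SE), limma adjusted p = 0.00368). Its exons overlap IK and TMCO6 on the opposite strand.

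Further accessory subunits of complex I also passed the test. NDUFB9 was higher in U937 at 1364 and 1338 TPM, against 668.5 to 997.6 TPM elsewhere (log2 difference 0.79 ± 0.20 (SE), limma adjusted p = 0.00875). NDUFB6 was higher in Jurkat at 648 and 673 TPM, against 290.4 to 460.2 TPM (log2 difference 0.90 ± 0.24 (SE), limma adjusted p = 0.0118). NDUFB5 was higher in BJAB at 499 and 406 TPM, against 192.8 to 295.1 TPM (log2 difference 0.93 ± 0.26 (SE), limma adjusted p = 0.0147). In each of these 3 genes the named line lay above all other untreated libraries. NDUFA7 was lower in THP-1 at 204 and 207 TPM, against 219.7 to 466.3 TPM (log2 difference -0.73 ± 0.23 (SE), limma adjusted p = 0.0258), and passed in 21 of 29 alternatives. NDUFA10, the longest subunit model at 9730 bases, was noticed after its values were seen because it passed in all 4 lines. NDUFA10 was at 36.2 to 42.2 TPM in THP-1 and Jurkat and at 18.3 to 22.2 TPM in U937 and BJAB, so the lines fell into pairs that did not overlap. Of the 37 complex I subunits, 4 were higher and 3 lower in THP-1. For U937, 1 was higher and 8 were lower. Jurkat had 4 higher against 2 lower, and BJAB 5 higher against 2 lower. These are 18.9%, 24.3%, 16.2% and 18.9% of the 37, beside 34.9%, 35.9%, 38% and 39.5% of all tested genes.

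Complex II oxidises succinate and links the chain to the citric acid cycle. SDHA, its flavoprotein, whose promoter letters are given above, was at 507 and 547 TPM in THP-1, 253 and 253 in BJAB, 214 and 219.9 in U937 and 197 and 164 in Jurkat. THP-1 lay above all other libraries (log2 difference 1.29 ± 0.40 (SE), limma adjusted p = 0.025, passing in 26 of 29 alternatives). SDHA has near-identical SDHAP copies, so uniquely aligned reads may undercount it. SDHB, the iron-sulfur subunit, was highest in U937 at 763 and 777 TPM, against 411.2 to 580.0 TPM elsewhere (log2 difference 0.70 ± 0.22 (SE), limma adjusted p = 0.0293). The 2 catalytic subunits were thus highest in different lines. The membrane anchors SDHC and SDHD did not pass in any line, with SDHC between 165.3 and 218.5 TPM.

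Complex III passes electrons from ubiquinol to cytochrome c. UQCRQ, one of its small subunits, was at 125 and 141 TPM in U937, 323 and 383 in Jurkat, 379 and 376 in BJAB and 486 and 469 in THP-1. U937 lay below all other libraries (log2 difference -1.58 ± 0.30 (SE), limma adjusted p = 0.00162) in each of 29 alternatives. The higher level in THP-1 (log2 difference 0.87 ± 0.30 (SE), limma adjusted p = 0.0436) passed in only 15 of 29. Exons of UQCRQ overlap GDF9 on the opposite strand. UQCRFS1, the Rieske iron-sulfur protein, and UQCRC2, a core protein, went the other way. UQCRFS1 was at 996 and 965 TPM in U937 and at 604.5 to 735.5 TPM elsewhere (log2 difference 0.54 ± 0.15 (SE), limma adjusted p = 0.0139). UQCRC2 was at 493 and 465 TPM in U937 and at 280.2 to 368 TPM elsewhere (log2 difference 0.57 ± 0.19 (SE), limma adjusted p = 0.0317). Both were above every library of the other lines. UQCRH was higher in THP-1 at 1524 and 1394 TPM (log2 difference 0.76 ± 0.17 (SE), limma adjusted p = 0.00358) and lower in BJAB at 685 and 733 TPM (log2 difference -0.62 ± 0.17 (SE), limma adjusted p = 0.01). Its near-identical copy UQCRHL had the same order, at 291 and 244 TPM in THP-1 and 121 and 119.7 in BJAB, and reads of the pair may be divided between them.

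Complex IV reduces oxygen. In U937, 6 of its 11 subunits (54.5%) passed, beside 35.9% of all tested genes, 2 higher (15.1% of genes) and 4 lower (20.8%). U937 had the lowest mean of the lines for 7 of the 11, a rank not counted over all tested genes. COX7C was at 1114 and 1225 TPM in U937 and at 2020 to 2391 TPM in the 6 other libraries (log2 difference -0.96 ± 0.17 (SE), limma adjusted p = 0.00105). COX8A, the common form of subunit 8, was at 761 and 839 TPM in U937 and at 1022 to 1767 TPM elsewhere (log2 difference -0.80 ± 0.17 (SE), limma adjusted p = 0.00304). COX7A2 and COX6A1 were lower too, at 674 and 682 and 803 and 817 TPM. In all 4 genes the U937 libraries were below all others. COX7B went the other way, at 1844 and 1734 TPM in U937 against 975.3 to 1161 TPM elsewhere (log2 difference 0.80 ± 0.20 (SE), limma adjusted p = 0.00831), and so did COX5A, at 2307 and 2037 TPM against 1295 to 1751 TPM (log2 difference 0.58 ± 0.13 (SE), limma adjusted p = 0.00437). In BJAB, NDUFA4, first described in complex I and now placed in complex IV, was at 705 and 708 TPM against 354.6 to 451.2 TPM elsewhere (log2 difference 0.81 ± 0.21 (SE), limma adjusted p = 0.0086). COX8A was also higher in BJAB, at 1618 and 1767 TPM (log2 difference 0.65 ± 0.17 (SE), limma adjusted p = 0.00925), and so was COX6B1, at 1497 and 1662 TPM (log2 difference 0.64 ± 0.23 (SE), limma adjusted p = 0.044). In THP-1 none of the 11 passed, with 1 at an unadjusted p under 0.05, beside 6178 of 14398 tested genes. In Jurkat COX5A alone passed.

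Complex IV has isoforms restricted to certain tissues, and 1 of them set U937 apart. COX8C, the testis isoform of subunit 8, was at 27.2 and 33.4 TPM in the U937 controls (27 and 59 reads) and 35.7 and 26.5 TPM after LPS. It was at 0 in all 8 libraries of Jurkat and BJAB, and in THP-1 it was at 0 in 3 libraries and at 0.97 TPM (2 reads) in the second control. With 3 reads per library taken as the floor, COX8C was at least 17.1-fold higher in U937 than in Jurkat and at least 16.3-fold higher than in BJAB (limma adjusted p = 4.4e-08 for U937 against the other lines). COX8C passed the filter through U937 alone, so it had to differ. Its lower calls in THP-1, Jurkat and BJAB come from U937 being part of the mean it was compared with. Even in U937 it was far below COX8A on the TPM scale. The muscle isoforms COX6A2 and COX7A1 and the testis isoform COX7B2 were listed at 0 in all 16 libraries, where the common forms COX6A1, COX7A2 and COX7B averaged 1308, 1041.5 and 1330.1 TPM. COX6B2 had at most 1 read in any library. COX4I2 was above 0 in the stimulated U937 libraries alone, at 0.79 and 0.82 TPM, recovered as 1 read in each, an uncertain count. NDUFA4L2, the paralogue of NDUFA4, was at 4.81 to 16.7 TPM in the untreated libraries and passed in no line. Nor did COX4I1, the common form of subunit 4, at 786.3 to 1223 TPM.

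Complex V subunits had a median ratio of 1.504 between the highest and the lowest untreated line, against 1.68 to 1.73 in the other complexes. ATP5B was at 3769 and 3437 TPM in BJAB and at 2210 to 2861 TPM in the other lines, and ATP5A1, the alpha subunit, at 1745 and 1532 and 1238 to 1341 TPM. BJAB libraries were above all others for both, but neither passed (limma adjusted p = 0.365 and 0.149). ATP5F1, the b subunit of the peripheral stalk, was at 1003 and 1041 TPM in THP-1 (log2 difference 0.82 ± 0.16 (SE), limma adjusted p = 0.00167) and 503 and 427 TPM in Jurkat (log2 difference -0.70 ± 0.16 (SE), limma adjusted p = 0.00412). ATP5H, the d subunit of that stalk, was higher in BJAB at 1210.2 and 1204 TPM, against 532.5 to 839.8 TPM elsewhere (log2 difference 0.87 ± 0.23 (SE), limma adjusted p = 0.00918). The membrane c-ring is encoded by 3 genes with the same mature protein. ATP5G3 was higher in U937 at 839 and 763 TPM, against 407.8 to 577.5 TPM (log2 difference 0.76 ± 0.16 (SE), limma adjusted p = 0.00303), and ATP5G2 was lower in BJAB at 173 and 208 TPM, against 241.6 to 368.7 TPM (log2 difference -0.70 ± 0.16 (SE), limma adjusted p = 0.00475). ATP5G1, at 724.7 to 932.9 TPM, passed in no line.

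Copies and associated genes gave some of the widest gaps. ATP5EP2, annotated as a pseudogene copy of ATP5E, was at 127 and 165 TPM in untreated Jurkat and at 20.5 to 29.7 TPM in the 6 other libraries (log2 difference 2.46 ± 0.27 (SE), limma adjusted p = 1.75e-05). ATP5E itself was at 53.3 and 80.7 TPM in Jurkat and 40.4 to 70.3 TPM elsewhere and did not pass, and reads shared by the pair could be placed on either. COX7A2L, which joins complexes III and IV into supercomplexes, was at 62.7 and 63.2 TPM in Jurkat, below the 121.5 to 158.9 TPM of the other lines (log2 difference -1.15 ± 0.20 (SE), limma adjusted p = 0.000653). ATP5S, known as coupling factor B, was lower in THP-1 at 18.1 and 16.4 TPM, against 20.9 to 42.8 TPM (log2 difference -0.79 ± 0.23 (SE), limma adjusted p = 0.0175). ATP5L2, a copy of ATP5L, was lower in U937 at 3.34 and 2.26 TPM (log2 difference -1.09 ± 0.28 (SE), limma adjusted p = 0.0101). The antisense RNA NDUFA6-AS1 was higher in Jurkat at 14.1 and 10.5 TPM (log2 difference 1.22 ± 0.41 (SE), limma adjusted p = 0.0374) but passed in 14 of 28 alternatives, and without known strand its reads cannot be told from those of the overlapping gene.

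**Figure D3:**
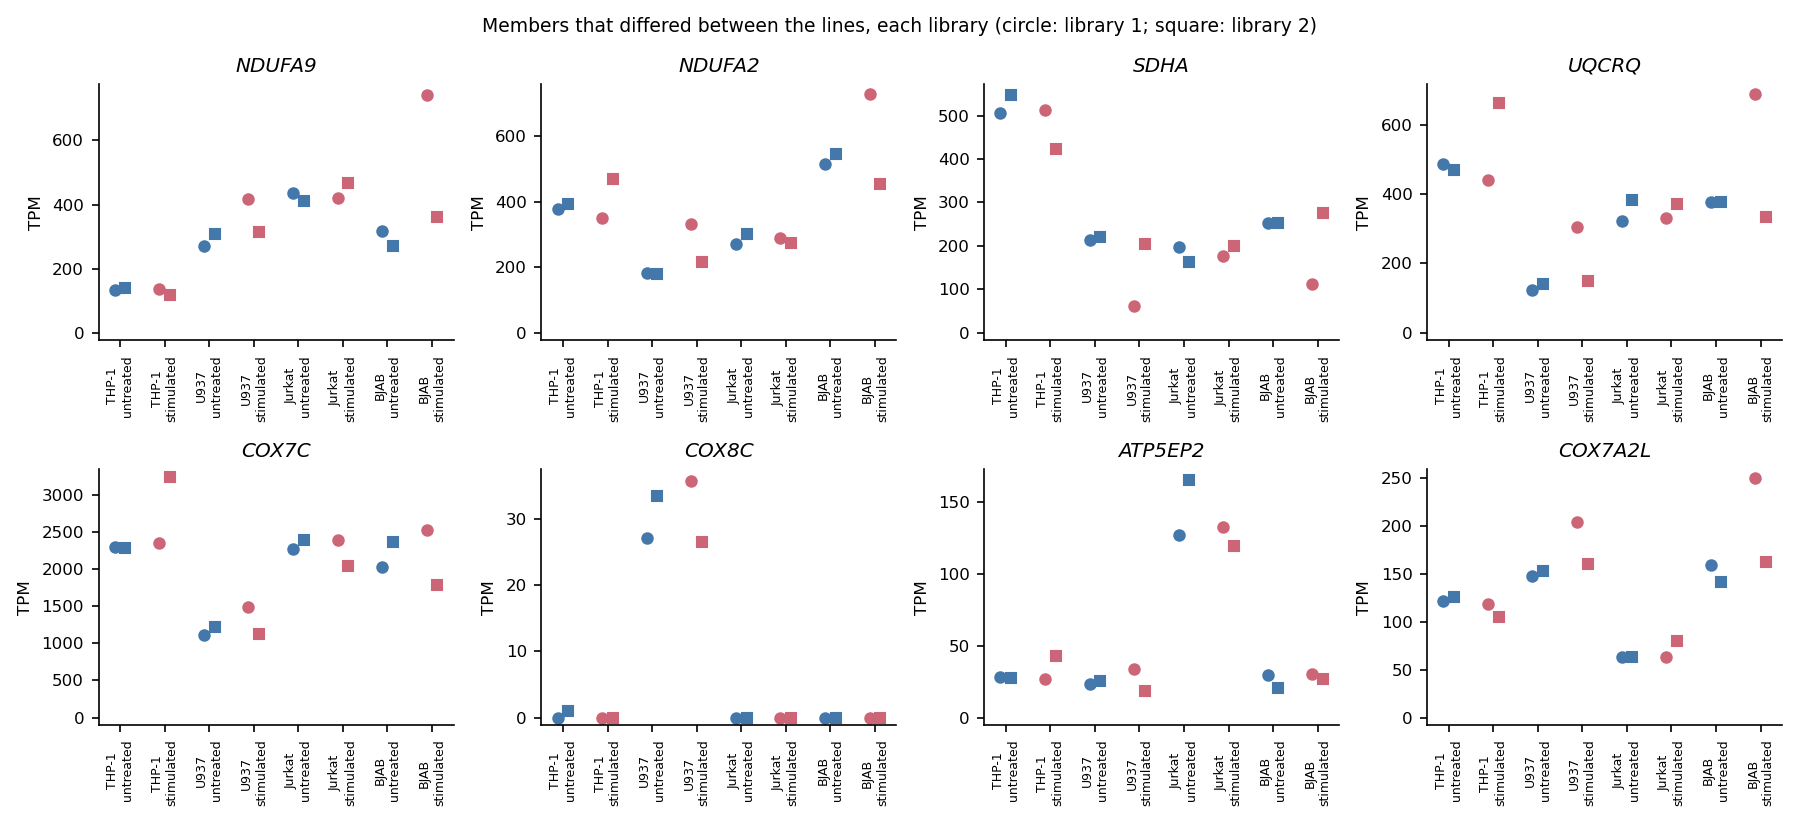
TPM of 8 members in each library of the 8 groups; circles are first libraries and squares second libraries, blue untreated and red stimulated. NDUFA9 is lowest and SDHA highest in THP-1, NDUFA2, UQCRQ and COX7C are lowest in untreated U937, COX8C is above 1 TPM in U937 alone, and ATP5EP2 is highest and COX7A2L lowest in Jurkat.

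Stimulation for 4 hours was tested next in each line. No member passed in any: 0 of 86 each for THP-1, U937, Jurkat and BJAB (limma), against 0.167%, 0.0278%, 4.87% and 6.4% of tested genes. At an unadjusted p under 0.05 there were 0, 14, 0 and 11 of the 86 members, beside 522, 2176, 1889 and 3481 of 14398 tested genes. The voom fit on the recovered reads also gave 0 members past the threshold in each line, beside 0.0347%, 0.0208%, 3.92% and 8.24% of tested genes. The background in THP-1 and U937 was 24 and 4 genes, so 0 there says little about the members. In Jurkat and BJAB, with 701 and 921 genes past the test, the members' share was below the background.

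In THP-1 and Jurkat the fitted changes of most subunits were small, and most intervals lay within a 2-fold change. Fitted log2 changes of the 75 subunits reached 0.62 (ATP5D) in THP-1 and ran from -0.34 (NDUFB10) to 0.37 (UQCRC2) in Jurkat. The 95% interval lay within a log2 change of -1 to 1 for 65 of 75 subunits in THP-1 and 66 in Jurkat, so a 2-fold change lay outside the interval for those and not for the others. The members' median log2 change was 0.04 in THP-1 and -0.02 in Jurkat, beside -0.06 and -0.03 over all tested genes. The subunits took 4.67% and 5.28% of TPM in THP-1 after LPS and 4.39% and 4.50% in stimulated Jurkat, against the untreated shares given above. The second THP-1 library after LPS had the fewest reads, 3317689, and was the higher of the pair. Its share lay above both controls and that of the first library below both. Of the 75 subunits, 17 were above both controls in the first library and 50 in the second, beside 5060 and 3345 of 14398 tested genes. Below both were 36 and 22, beside 4501 and 7396. In the second library the median log2 difference was 0.20 for subunits under 1000 bases and -0.05 for those of at least 2000. UQCRC2 in Jurkat was at 311 and 334 TPM untreated and 408 and 425 TPM stimulated, with no overlap. It missed the test with all libraries (log2 change 0.37 ± 0.23 (SE), limma adjusted p = 0.642) and passed once the first stimulated library of U937 and that of BJAB were left out (log2 change 0.37, limma adjusted p = 0.045), where 13.5% of genes passed.

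In U937 the pair of LPS libraries disagreed. The first had 7.37% of TPM in the subunits and the second 4.69%, against 4.47% and 4.54% untreated. Against the mean of the controls, the median subunit was 0.83 higher on the log2 scale in the first library and 0.08 in the second. Of the 75 subunits, 66 were above both controls in the first library and 43 in the second, beside 2848 and 4200 of 14398 tested genes. Among the 1130 tested genes under 1000 bases, 544 and 399 were above both controls. The length of the transcript moved with this: in the first library, subunits under 1000 bases had a median of 0.90 and those of at least 2000 bases 0.25. All tested genes under 1000 bases had a median of 0.23 and those of at least 2000 bases -0.74. Subunit transcripts are short, with a median of 974 bases and 53.3% under 1000, against 3104.5 bases and 7.8% over all tested genes. NDUFA13, an accessory subunit of 542 bases, was at 848 and 955 TPM untreated and 2549.7 and 1116 TPM after LPS (log2 change 0.91 ± 0.39 (SE), limma adjusted p = 0.329). NDUFS1, of 3572 bases, was at 109 and 119.9 TPM untreated and 22.4 and 117 TPM after LPS (log2 change -1.14 ± 0.56 (SE), limma adjusted p = 0.334). The first LPS library lay far from both controls in these genes, in opposite directions, and the second lay above both for NDUFA13 and between them for NDUFS1. SDHA, of 2790 bases, was at 62.5 and 204 TPM after LPS, against 214 and 219.9 untreated. ATP5D, the delta subunit of the central stalk, was below both controls in both LPS libraries, at 267 and 282 TPM untreated and 33.2 and 161 TPM after LPS, but did not pass (log2 change -1.89 ± 0.67 (SE), limma adjusted p = 0.329). Fitted intervals were within a log2 change of -1 to 1 for 29 of 75 subunits. Without the second LPS library 50 members passed, 45 higher and 5 lower, beside 34.7% of all genes. Without the first, and without the first stimulated BJAB library, 0 passed (0.0278% of genes) and the members' median was 0.08. What made the first library differ was not tested.

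The pair of stimulated BJAB libraries disagreed too, in part in the same genes as in U937. The subunits took 7.12% of TPM in the first stimulated library and 5.18% in the second, against 5.41% and 5.40% untreated, so the libraries lay on opposite sides of the controls. The median subunit was 0.33 higher on the log2 scale in the first library and 0.08 lower in the second. NDUFB8, an accessory subunit, was at 941 and 764 TPM untreated and 3086 and 1160.0 TPM stimulated, above both controls in both libraries (log2 change 1.16 ± 0.43 (SE), limma adjusted p = 0.131). NDUFA12 was at 853 and 766 TPM untreated and 3263 and 884 TPM stimulated. ATP5B was at 3769 and 3437 TPM untreated and 1136 and 3888 TPM stimulated (log2 change -0.78 ± 0.45 (SE), limma adjusted p = 0.32). For NDUFA12 and ATP5B the second library was close to the controls and the first far from them, above for one and below for the other. The LPS libraries of U937 split the same way, at 1264 and 543 TPM for NDUFA12 and 1323 and 2666 TPM for ATP5B. The U937 controls were at 501 and 525 TPM and at 2723 and 2636 TPM. In BJAB, ATP5D was again below both controls in both libraries, at 372 and 427 TPM untreated and 70.2 and 265 TPM stimulated (log2 change -1.54 ± 0.67 (SE), limma adjusted p = 0.193). In THP-1 it was above both controls, at 236 and 308 TPM untreated and 351 and 493 TPM after LPS. Fitted intervals lay within a log2 change of -1 to 1 for 45 of 75 subunits. Without the second stimulated library 28 members passed, 16 higher and 12 lower, beside 29% of all genes. Without the first stimulated library of BJAB and that of U937, 0 passed (9.22% of genes) and the members' median was -0.08. With length and GC trends removed 0 of 82 tested members passed in stimulated BJAB, as in the main fit. Whether GC content, whose trend in the first stimulated BJAB library is given above, made that library differ was not tested.

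**Figure D4:**
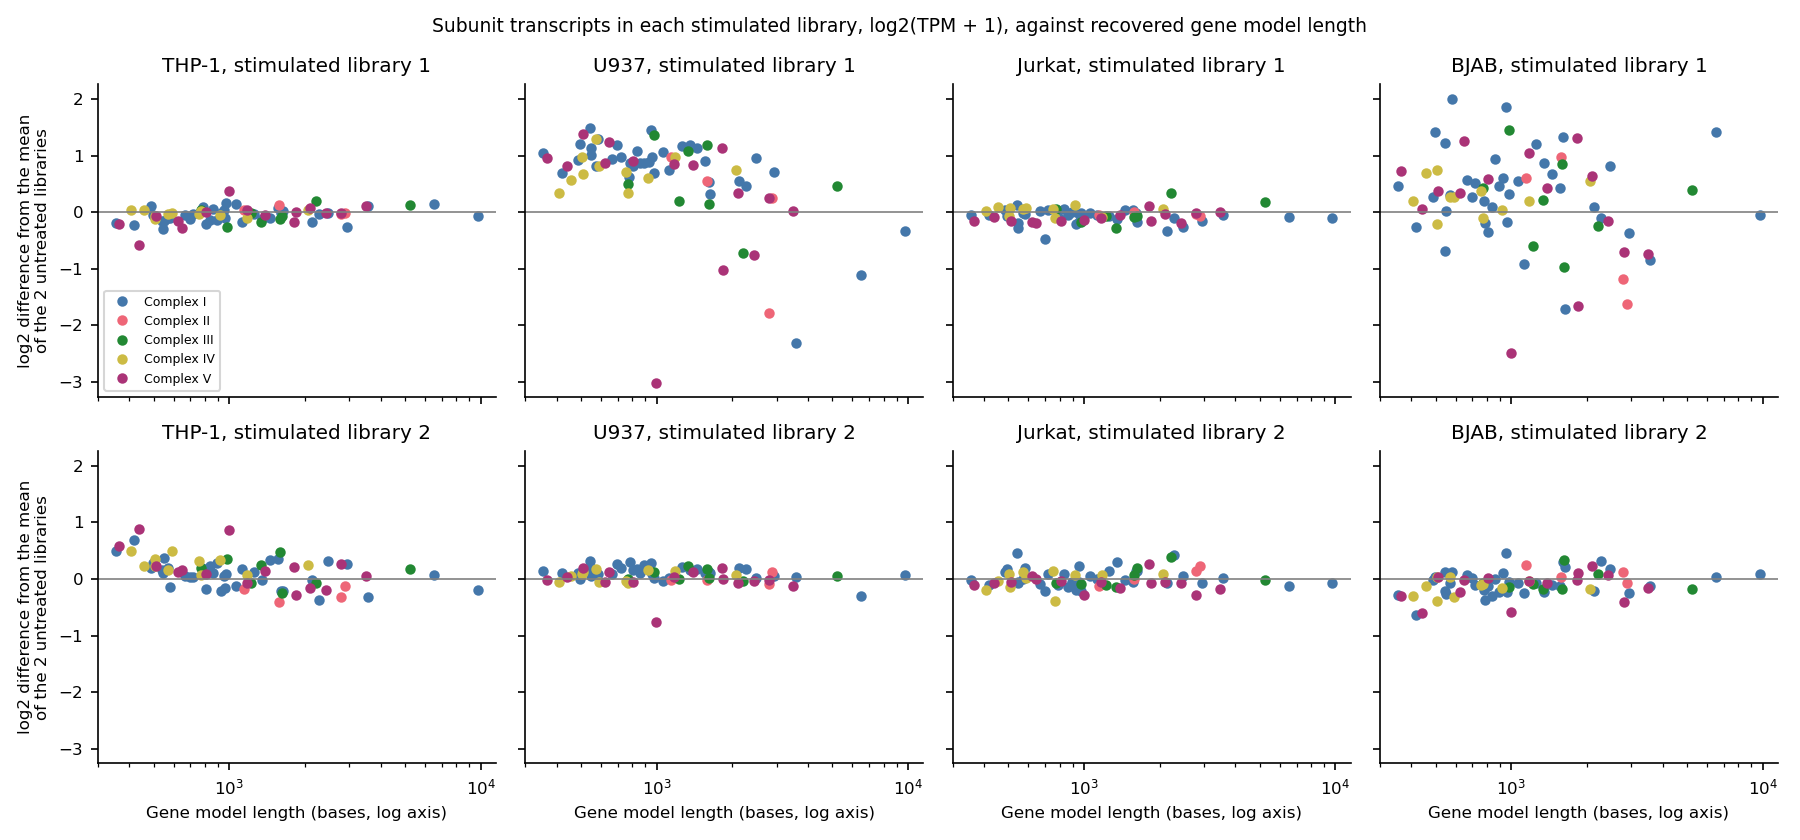
Log2 difference of each stimulated library from the mean of the line's 2 untreated libraries, for the 75 standard subunits, against the gene model length in bases on a log axis; colours are complexes. Points lie between -0.76 and 0.89 in 6 libraries, are higher in the first U937 library for subunits under 1000 bases (median 0.90) than for those of at least 2000 bases (median 0.25), and scatter from -2.49 to 2.01 in the first BJAB library.

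**Figure D5:**
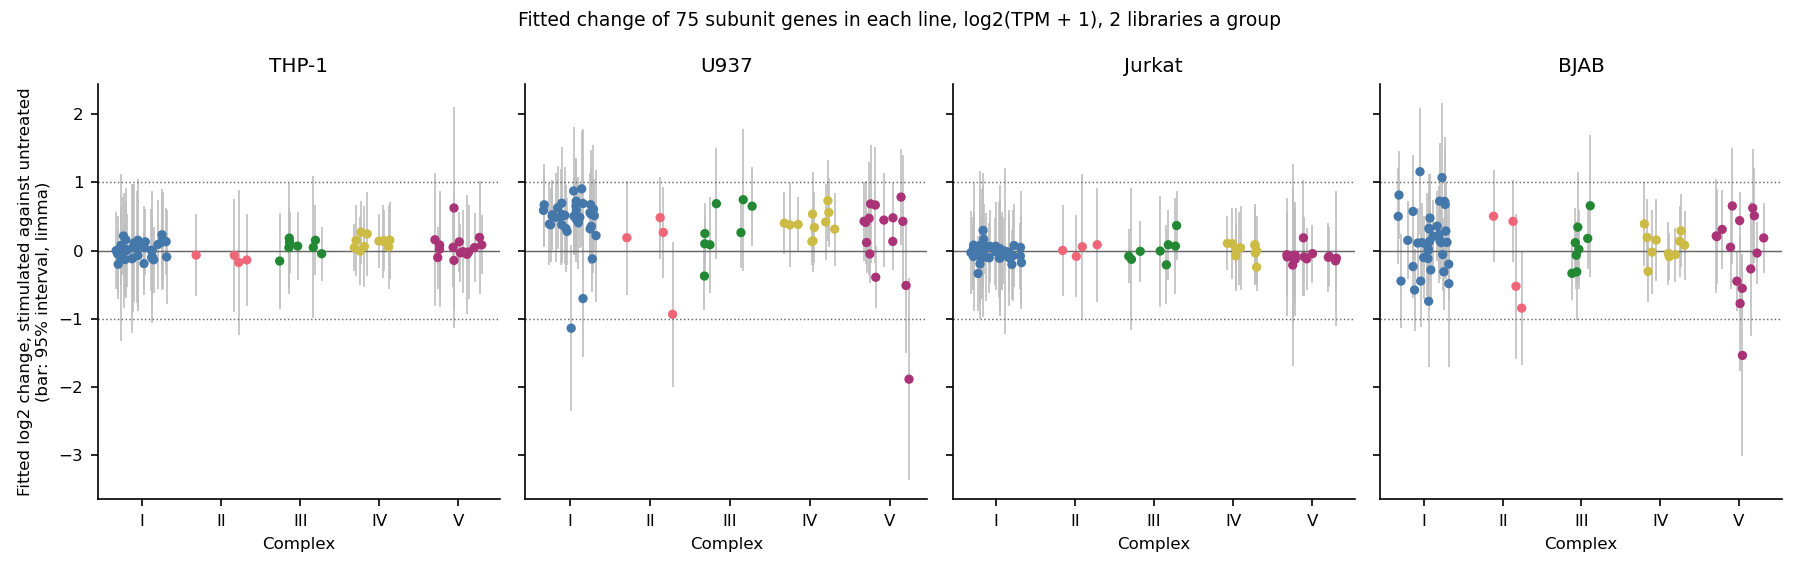
Fitted log2 change with its 95% interval for the 75 subunits in each stimulation, by complex; dotted lines mark -1 and 1. None passed the test, and intervals are within the dotted lines for 65 subunits in THP-1, 29 in U937, 66 in Jurkat and 45 in BJAB.

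Core catalytic genes of complexes I, II, III and V were among those that did not pass. Over the 4 stimulations, the fitted log2 change of NDUFV1 ran from -0.74 in BJAB to 0.22 in U937, that of SDHB from -0.08 in Jurkat to 0.48 in U937 and that of UQCRFS1 from -0.33 in BJAB to 0.10 in U937. That of ATP5A1 ran from -0.39 in U937 to -0.04 in BJAB. The fits in U937 and BJAB rest on pairs of stimulated libraries that disagreed. NDUFV1 in BJAB was at 139 and 528 TPM stimulated, against 458 and 451 TPM untreated. After LPS in U937, SDHB was at 1526 and 761 TPM, against 763 and 777 TPM untreated. ATP5A1 there was at 786 and 1300 TPM after LPS, against 1319 and 1335 TPM untreated. By complex, the median change was 0.02, -0.10, 0.06, 0.14 and 0.04 for complexes I to V in THP-1 and -0.02, 0.03, -0.01, 0.03 and -0.09 in Jurkat. It was 0.51, 0.23, 0.26, 0.38 and 0.43 in U937 and 0.12, -0.05, 0.07, 0.08 and 0.19 in BJAB. Over all tested genes the median was -0.25 in U937 and -0.14 in BJAB. By stimulated library, the subunit median was 0.83 and 0.08 in U937 and 0.33 and -0.08 in BJAB. The difference between the LPS responses of THP-1 and U937, which got different doses, and that between Jurkat and BJAB were also tested. In each, 0 of 86 members passed (limma), against 0.0486% and 5.24% of tested genes. At an unadjusted p under 0.05 there were 2 and 0 members, beside 891 and 2399 of 14398 tested genes. The voom fit gave 0 members in both, beside 0% and 3.74% of tested genes. Without the second LPS library of U937 20 members passed in the first difference, against 17.8% of genes, and without the second stimulated BJAB library 13 passed in the second, against 20.6%.

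Genes that serve the chain were read from lists. Among 11 tested further subunits and carriers, 1 was higher in untreated THP-1 and 3 in untreated BJAB, with none lower. U937 had 3 higher against 1 lower and Jurkat 1 higher against 3 lower. The shares past the test were 9.1% for THP-1, 36.4% for U937, 36.4% for Jurkat and 27.3% for BJAB, beside the 34.9%, 35.9%, 38% and 39.5% of all tested genes. By direction, the 27.3% in BJAB, all higher, lay above the 14.5% of genes higher there. The 9.1% in THP-1, also higher, lay below its 17.6%. CYC1, the cytochrome c1 subunit of complex III that falls outside the name rule, was at 1373 and 1487 TPM in THP-1 libraries and 884 and 947 TPM in U937. It was at 949 and 902 TPM in BJAB and 649.6 and 624 TPM in Jurkat. THP-1 was highest (log2 difference 0.81 ± 0.24 (SE), limma adjusted p = 0.023) and Jurkat lowest (log2 difference -0.74 ± 0.24 (SE), limma adjusted p = 0.0323, passing in 19 of 29 alternatives). SLC25A4, an ADP/ATP carrier that exports the ATP made by complex V, was at 94.98 and 94.4 TPM in BJAB, 65.2 and 58.1 in Jurkat, 11.7 and 11.6 in THP-1 and 0.24 and 0 in U937. The 4 lines did not overlap, and U937 was lowest (log2 difference -5.25 ± 0.32 (SE), limma adjusted p = 2.94e-07). Its paralogue SLC25A5 was highest in U937, at 2474 and 2419.8 TPM against 1434 to 1645 TPM elsewhere (log2 difference 0.65 ± 0.13 (SE), limma adjusted p = 0.00224). ETFA, which feeds electrons from fat oxidation to the chain, was at 864 and 840.3 TPM in U937 (log2 difference 1.10 ± 0.21 (SE), limma adjusted p = 0.00142) and 237 and 226 TPM in Jurkat (log2 difference -1.40 ± 0.21 (SE), limma adjusted p = 0.00021).

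Of 46 assembly factors, 9 were higher in BJAB and none lower, and for Jurkat 7 were higher against 2 lower. U937 had 2 higher against 7 lower, and THP-1 1 higher against 4 lower. From THP-1 to BJAB in the order used above, the shares were 10.9%, 19.6%, 19.6% and 19.6%, below the backgrounds given above for either direction. In BJAB all were higher, so 19.6% lay above the 14.5% of genes higher there. COX11, a copper chaperone of complex IV, was lower in THP-1 at 24.4 and 28.4 TPM, against 71.0 to 106.3 TPM elsewhere (log2 difference -1.66 ± 0.27 (SE), limma adjusted p = 0.000536). NDUFAF2, a complex I assembly factor, was lower there at 37.9 and 49.8 TPM, against 112.7 to 136.7 TPM (log2 difference -1.47 ± 0.24 (SE), limma adjusted p = 0.000496). COX17, which carries copper to complex IV, was at 194 and 196 TPM in U937 (log2 difference -1.40 ± 0.28 (SE), limma adjusted p = 0.00237) and 829 and 874 TPM in BJAB (log2 difference 1.42 ± 0.28 (SE), limma adjusted p = 0.00174). THP-1 lay below all other untreated libraries in COX11 and NDUFAF2, and the 4 lines did not overlap in COX17. ATPAF2, an ATP synthase assembly factor, was higher in BJAB at 127 and 129.6 TPM, against 29.6 to 61.2 TPM (log2 difference 1.58 ± 0.23 (SE), limma adjusted p = 0.000182).

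Of 17 citric acid cycle genes, 4 were higher in U937, 3 were lower in BJAB and 2 in THP-1, while Jurkat had 1 of each. The shares, 11.8%, 23.5%, 11.8% and 17.6% for THP-1, U937, Jurkat and BJAB, were below those backgrounds for either direction. In U937 all were higher, so 23.5% lay above the 15.1% of genes higher there. In THP-1 and BJAB all were lower, beside 17.3% and 25% of genes lower. IDH3B, a subunit of the NAD-dependent isocitrate dehydrogenase, was at 541 and 587 TPM in U937 (log2 difference 1.35 ± 0.16 (SE), limma adjusted p = 4.61e-05) and 141 and 135 TPM in THP-1 (log2 difference -1.35 ± 0.16 (SE), limma adjusted p = 4.08e-05), the extremes of the 4 lines. PDHA1, of pyruvate dehydrogenase, was higher in U937 at 263 and 279 TPM (log2 difference 1.15 ± 0.16 (SE), limma adjusted p = 0.000142). FH, fumarate hydratase, which acts after complex II, was lower in BJAB at 139 and 142 TPM, against 251.8 to 378.4 TPM elsewhere (log2 difference -1.21 ± 0.21 (SE), limma adjusted p = 0.000647).

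Of 15 regulators of mitochondrial genes, 2 were higher in U937, 2 were lower in THP-1 and 2 in BJAB, while Jurkat had 1 higher against 2 lower. The shares, 13.3%, 13.3%, 20% and 13.3%, were likewise below the backgrounds for either direction. Over all tested genes 15.1% were higher in U937, and 17.3% and 25% were lower in THP-1 and BJAB. PPARGC1A, the coactivator PGC-1alpha, was at 6.07 and 5.95 TPM in untreated U937 and at 0 in the untreated libraries of the other lines (limma adjusted p = 3.62e-07). Its lower calls in THP-1, Jurkat and BJAB, 1 of the lower regulators in each, come from U937 being part of the mean. TFAM, which packages and transcribes mitochondrial DNA, was lower in THP-1 at 29.5 and 30.2 TPM, against 49.5 to 57.4 TPM (log2 difference -0.80 ± 0.19 (SE), limma adjusted p = 0.00561). After stimulation, 2 genes of all these lists passed, both in BJAB. TMEM70, which helps assemble ATP synthase, was at 125 and 125 TPM untreated and 308 and 281 TPM stimulated (log2 change 1.23 ± 0.19 (SE), limma adjusted p = 0.00301), and the response differed from that of Jurkat (log2 difference -1.15 ± 0.27 (SE), limma adjusted p = 0.0295). PPARGC1A was at 0 in both BJAB controls and at 2.84 and 2.28 TPM, or 84 and 64 reads, after stimulation (limma adjusted p = 0.000523). With 3 reads per library as the floor that is at least 19.7-fold higher. Both stimulated BJAB libraries lay above both controls in the 2 genes.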

How the data were processed

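RNA was sequenced from 16 libraries of 4 established cell lines, made with SmartSeq2 from oligo-dT primed RNA per the labels. The values deposited by the authors are TPM for 27311 genes, 1 file per library, from uniquely aligned reads per the file names. TopHat2 and hg19 are named in the submitters' processing notes, and what program and annotation served for counting is not given in the sources used here. Gene symbols are those of the files, and no hg19 positions were used.

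Whole reads were recovered from the TPM steps (tolerance 0.001) for 17860 of 19092 genes above 0 (93.5%), which gave 3317689 to 8432224 reads per library and the gene model lengths. In the shallowest library 47.0% of the recovered counts were odd, against 48.0% to 50.4% in the others, whereas a depth larger by a factor of 2 would make all of them even. Floors of 3 reads cover counting error only, and PCR reads are not independent molecules. The 95% intervals are from limma and rest on the spread between libraries. Genes with at least 1 TPM in at least 2 libraries (14398) entered limma 3.58.1 (R 4.3.3) on log2(TPM + 1), with 8 groups of 2 libraries, a trend of the spread with level, 8 residual degrees of freedom, two-sided tests, Benjamini-Hochberg adjustment over all tested genes and a threshold of 0.05. A fold change on this scale understates the change of low genes. The 10 comparisons were 4 stimulations, 4 untreated lines against the mean of the other 3, and 2 differences of responses. The procedure was tested on simulated data.

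Named were members past the test in a stimulation, the 4 largest differences each way per untreated line, the most abundant member of each complex, fixed isoforms and catalytic subunits, and members of the lists past the test. Some named by that rule are given as counts alone, and a named result is not reported here. Members and lists were chosen with earlier results of these data known. Alternatives were other pseudocounts (0.1 and 5) and filters (none, or 5 TPM), median-of-ratios and quantile scaling, no trend, a replicate block, voom on recovered reads, length trends removed, compared lines alone, single libraries left out, and the first stimulated library of both U937 and BJAB dropped. Removing GC with length trends was added after the data were seen. The NRF1 and YY1 motif forms also were changed then: a looser NRF1 form had been found in 15 of 62 subunit promoters (24.2%, against 11.3% of tested genes' and 6.3% of all promoters) and a longer YY1 form in 4 (6.5%, against 1.9% and 0.9%).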

Additional observations from a re-analysis of the deposited data

How the results depend on the processing

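In the 4 untreated lines the count of members past the limma threshold stayed within 1.5 times its value in 81 of 116 alternatives. In the untreated lines, in the order THP-1, U937, Jurkat and BJAB, 16, 24, 13 and 19 members passed. The compared lines alone gave 48, 59, 48 and 59, and dropping the first stimulated library of U937 and of BJAB gave 43, 51, 40 and 51. Both settings drop libraries with a wide spread, and the background rose as well, to 61.3%, 63.5%, 64.5% and 65% with the compared lines alone. Median-of-ratios scaling gave 6, 10, 8 and 3, beside 36.1%, 37%, 37.1% and 40.3% of tested genes. Voom on recovered reads gave 10, 15, 10 and 9, of which 9, 5, 4 and 6 were higher. In the voom fit 35.6%, 33.6%, 38.4% and 39% of tested genes passed. Quantile normalization gave 20 in Jurkat. The balance in THP-1, 11 higher and 5 lower, turned to 22 and 26 with the compared lines alone, 19 and 24 with both first stimulated libraries dropped, and 11 and 12 without either stimulated U937 library. The cause of these shifts was not tested. With the length trend removed 9 members were higher and 7 lower in THP-1. With length and GC trends removed 10 were higher and 8 lower there, and 4 higher and 12 lower in Jurkat. Leaving out 1 library gave 4 to 23, 9 to 32, 5 to 26 and 4 to 29 members in the untreated lines. It gave 0 to 50 in stimulated U937, 0 to 28 in stimulated BJAB, 0 in stimulated THP-1 and Jurkat, 0 to 20 for THP-1 minus U937 and 0 to 13 for Jurkat minus BJAB. A lone library in such a fit is taken to vary as the other groups do. Without the second stimulated library of U937 or that of BJAB, more of all tested genes passed too in the untreated lines. With no filter on low values, 1 member, COX4I2, passed in stimulated U937 and in THP-1 minus U937. It rests on about 1 read in each stimulated U937 library, below the 1 TPM filter, so this pass does not show a response to LPS. The UQCRC2 result in stimulated Jurkat without the first stimulated library of U937 and of BJAB is given above.

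Each line uses replicate numbers 1 and 2 in both groups, and their meaning is not labelled. Deviations of same-numbered libraries correlated at 0.012 in THP-1, -0.042 in U937, 0.017 in Jurkat and 0.142 in BJAB, so they were not taken as pairs. The replicate block gave 10, 20, 9 and 11 members in the untreated lines, beside 31.7%, 33.2%, 35.2% and 36.7% of tested genes. It gave 0 members in each stimulation, beside 0.0556%, 0.0278%, 3.31% and 3.76% of genes. In the differences of responses it also gave 0, beside 0.0139% for THP-1 minus U937 and 3.5% for Jurkat minus BJAB. For COX8C, 3 reads amount to 1.45 to 3.41 TPM. That floor was chosen and is not a limit of detection: the second THP-1 control held COX8C below it, at 0.97 TPM (2 reads).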
